A study of Mus musculus with 6 samples.

Results

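The NIK, TRAF, cIAP and IKK genes are the upstream arm of the alternative NF-kB pathway, and 10 of them were followed in 6 RNA-seq libraries of mouse splenic regulatory T cells (Tregs, CD4 T cells that restrain immune responses). The genes were taken by name from a fixed list, and all 10 were found among the 55573 genes listed and passed the filter on low counts. The libraries were 3 from Tregs labelled Nfkb2-/- and 3 from Tregs labelled wild type. Both kinds of cell came from bi-parental bone marrow chimeras, mice whose blood cells were rebuilt from donor marrow, were sorted at a stated purity of over 90%, and were rested in medium for 2 h before lysis. The genotype is labelled Nfkb2-/- without a cell-type-specific driver, so the mutation is not labelled as confined to Tregs. The age, sex and strain of the mice are not given in the sources used here, and the labels call the libraries biological repeats.

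Nfkb2 encodes p100, a precursor that holds RelB in the cytoplasm until its C-terminal part is removed and p52 remains. Processing of p100 is set by the kinase NIK (Map3k14). In unstimulated cells an adaptor complex of TRAF3 and TRAF2 brings the ubiquitin ligases cIAP1 (Birc2) and cIAP2 (Birc3) to NIK, which is then degraded. When receptors of the TNF family such as 4-1BB or OX40 are engaged, TRAF3 is lost, NIK accumulates and phosphorylates IKK-alpha (Chuk), and p100 is processed. IKK-beta (Ikbkb) and the scaffold NEMO (Ikbkg) form the canonical kinase with IKK-alpha, and the deubiquitinase CYLD removes the chains that activate it.

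Nfkb2 itself was at 268, 324 and 271 CPM (counts scaled to library size) in the Nfkb2-/- libraries, against 558, 545 and 556 CPM in wild type. It was thus lower in every library labelled Nfkb2-/-, but not absent, and counts per gene cannot show which exons the remaining reads came from. Nfkb2 shares 531 exonic bases, 11.6% of its exons, with AC114539.1 and 299 bases, 6.52%, with Psd. Both lie on the opposite strand, which unstranded counts cannot separate. The part of these overlaps in the remaining reads was not tested. Library totals ran from 12005273 to 14359439 counts in Nfkb2-/- and from 12499343 to 17278521 in wild type. The Treg markers were present throughout: the 10 genes of that list, Foxp3, Il2ra and Cd4 among them, summed to 4814 to 5341 CPM in Nfkb2-/- and to 3685 to 5857 CPM in wild type, with 0 of 10 called in either direction. Without overlap between the genotypes, Il2ra was lower (log2 fold change -0.38) and Ikzf2 higher (0.65) in Nfkb2-/-. Both had an edgeR unadjusted p under 0.05. Of all genes tested, 20.6% did not overlap and 13.6% had an unadjusted p under 0.05. The 19 B cell markers summed to 1210 to 1498 CPM in Nfkb2-/-. Of the wild-type libraries, replicate 1 was unlike the other 2, with 738 CPM of these markers against 2173 and 2427 CPM, and with the lowest Treg marker sum. The Nfkb2-/- sums lay within the wild-type range, but gene by gene nearly the whole list was lower: of 18 tested, 17 had a negative log2 fold change (median -1.56), 9 lay below wild type without overlap, 12 had an unadjusted p under 0.05, 2 were called lower and none was called higher. Of all genes tested, 9.9% lay below wild type without overlap, 0.405% were called lower and 1.01% were called higher. None of the 19 B cell markers was at 0 in any library. Of the 4 tested CD8 T and NK markers 1 (Eomes) was called higher and none lower, and the 6 listed summed to 36.2 to 48.3 CPM in Nfkb2-/- and to 20.1 to 49.2 CPM in wild type. The 8 myeloid markers, of which 0 of 6 tested were called, summed to 16.6 to 39.2 CPM in Nfkb2-/- and to 13.95 to 65.5 CPM in wild type. The genotypes also differed in sex-linked transcripts. In replicate order, 4 Y-linked genes summed to 40.1, 138 and 275 CPM in Nfkb2-/-, against 465 to 498 CPM in wild type. Xist was at 840, 880 and 586 CPM in Nfkb2-/-, against 1.92 to 16.6 CPM in wild type. Every Nfkb2-/- library thus held both Xist and Y-linked RNA, the latter in differing amounts. Whether these libraries mix cells of both sexes or of different donors was not tested. The part of such cells in the remaining Nfkb2 reads was not tested either. Sex of the cells and genotype therefore cannot be told apart in any comparison here.

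Birc2 rose about 2-fold in Nfkb2-/- Tregs. Traf3, which acts in the same inhibitory complex, had a fold difference of the same size that missed the threshold. Of 16 alternative fits 10 called Birc2 and 5 called Traf3, the latter including the fit with the replicate number as a block. The kinase gene Map3k14 and the other 7 genes had log2 fold changes between -0.21 and 0.32, and none of these passed the test. By edgeR's quasi-likelihood test with Benjamini-Hochberg adjustment over all 13347 genes tested, 1 of the 10 genes (Birc2) was called higher at an adjusted p under 0.05 and 0 lower, where 1.42% of all genes tested were called in either direction, 1.01% higher and 0.405% lower. Birc2 and Traf3 were the 2 of 10 with an unadjusted p under 0.05, against 13.6% of all genes tested. The median log2 fold change of the 10 genes was 0.02, beside -0.03 over all genes tested. DESeq2 called 2 of the 10 higher and 0 lower, where it called 3.21% of all genes tested higher and 1.89% lower. The limma-voom test called 1 of the 10 higher and 0 lower, against 1.14% and 0.33% of all genes tested, and edgeR with the replicate block called 2 higher and 0 lower, against 1.47% and 0.697%. In bulk libraries such as these, a different share of cells that express a gene and a different amount of its RNA per cell cannot be told apart.

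**Figure D1:**
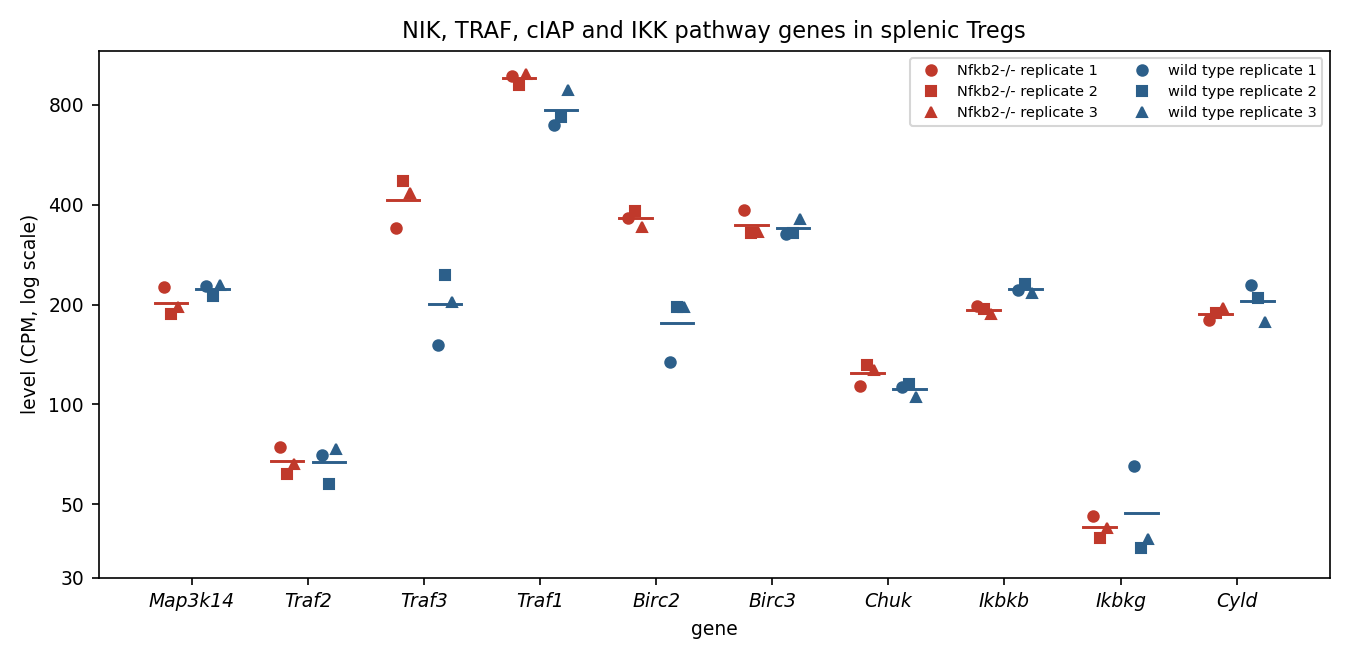
Level of each of the 10 genes in CPM on a log scale, with Nfkb2-/- libraries in red left of wild-type libraries in blue, 1 symbol per library (circle, square and triangle for replicates 1, 2 and 3) and a line at the mean of each genotype. For Traf3 and Birc2 the 2 genotypes lie far apart, with means of 415 and 364 CPM in Nfkb2-/- against 200 and 176 CPM in wild type, while Birc3, Traf2 and Map3k14 overlap.

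Birc2, which encodes the ubiquitin ligase cIAP1, rose in Nfkb2-/- Tregs. Its level was 365, 384 and 342 CPM in the Nfkb2-/- libraries and 135, 196 and 197 CPM in wild type. The lowest Nfkb2-/- library was 1.74 times the highest wild-type library, so the genotypes did not overlap, as was the case for 20.6% of all genes tested (10.7% higher in Nfkb2-/-). Wild-type replicate 1 was the lowest of all 6 libraries. The means were 364 ± 21.1 CPM in Nfkb2-/- libraries, against 176 ± 35.7 CPM in wild-type ones (SD, n = 3 each), or 1.05 on the log2 scale (fold change with SE 0.172; edgeR adjusted p = 0.0319). Without wild-type replicate 1 the log2 fold change was 0.89 and the edgeR adjusted p 0.000469. That fit called 9.04% of all genes tested, against 1.42% in the reported fit. Without Nfkb2-/- replicates 1, 2 and 3 the edgeR adjusted p was 0.136, 0.184 and 0.164. Without wild-type replicates 2 and 3 it was 0.0938 and 0.0709, and adding the Y-linked level to the model gave 0.533. The log2 fold change stayed between 1.01 and 1.13 in these fits. Over all genes tested, those without Nfkb2-/- replicates 1, 2 and 3 called 12, 6 and 11 higher. The fits without wild-type replicates 2 and 3 called 54 and 56 higher, and the Y-linked fit called 6.

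Birc3, the neighbouring paralog that encodes cIAP2, did not differ between the genotypes beyond their spread. Its level was 387, 328 and 331 CPM in Nfkb2-/- and 327, 328 and 363 CPM in wild type, with the genotypes overlapping. The log2 fold change was 0.04 with an SE of 0.131 (edgeR adjusted p = 0.933), and 2 standard errors to either side span -0.22 to 0.30. Its sign turned to -0.14 with the Y-linked covariate and to -0.04 without Nfkb2-/- replicate 1. The genes lie on the minus strand of chromosome 9 (GRCm38), Birc2 (ENSMUSG00000057367) at 7818227 to 7837064 and Birc3 (ENSMUSG00000032000) at 7848699 to 7873186, with a gap of 11635 bases between them. Besides Birc2, none of the 7 genes tested within 1 Mb of Birc3 was called, and none of the 7 within 1 Mb of Birc2.

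The ratio of Birc2 to Birc3 counts within a library, which needs no scaling between libraries, was 0.944, 1.17 and 1.03 in the 3 Nfkb2-/- libraries, against 0.412, 0.598 and 0.542 in the 3 wild-type ones, by replicate number. The share of cIAP reads that came from Birc2 was thus larger in every Nfkb2-/- library. On the log2 scale the difference was 1.03 (0.06 ± 0.155 in Nfkb2-/- and -0.97 ± 0.279 in wild type, SD, n = 3 each). The genotypes did not overlap, which was already so for Birc2 alone. How often ratios of other gene pairs lack overlap was not computed. The exact two-sided permutation test gave p = 0.1, the smallest that 3 libraries against 3 allow (0.1 after adjustment over the 3 ratios tested).

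Traf3, the adaptor that ties NIK to the cIAP ligases, was at 339, 471 and 435 CPM in Nfkb2-/- and at 151, 246 and 203 CPM in wild type. Every Nfkb2-/- library was above every wild-type library, as for 10.7% of all genes tested, the nearest pair differing 1.38-fold. Within each genotype replicate 1 was lowest and replicate 2 highest, and the log2 difference between same-numbered libraries was 1.16, 0.93 and 1.10. The means were 415 ± 67.8 CPM in Nfkb2-/- libraries, against 200.3 ± 47.5 CPM in wild-type ones (SD, n = 3 each), or 1.05 on the log2 scale (fold change with SE 0.21; edgeR adjusted p = 0.0592). With the replicate number as a block the edgeR adjusted p was 0.0236 (log2 fold change 1.07), and DESeq2 gave 0.000426. The edgeR adjusted p was 0.00317 without wild-type replicate 1 (log2 fold change 0.88). That fit called 9.04% of all genes tested, against 1.42% in the reported fit. The adjusted p was 0.0907 to 0.291 without each of the other libraries, in fits that called 6 to 56 genes higher. With the Y-linked covariate it was 0.417 (log2 fold change 1.37), in a fit that called 6 genes higher. Traf3 (ENSMUSG00000021277) lies on chromosome 12, plus strand, at 111166370 to 111267153, and 0 of 31 genes tested within 1 Mb were called.

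With the B cell marker level as a covariate the log2 fold change of Traf3 was 1.16 (edgeR adjusted p = 5.633e-05) and that of Birc2 1.14 (edgeR adjusted p = 1.379e-05), in a fit that called 18.7% of all genes tested. The covariate was the log2 of the summed CPM of the list, and it was lowest in wild-type replicate 1. Cd74 and Ighm, named after their values were seen, had the highest means in the list. They were at 456 and 513 CPM in Nfkb2-/- and 349 and 580 CPM in wild type (log2 fold changes 0.39 and -0.18). This fit therefore does not adjust for the lower level of most genes of the list. The part of the lower B cell markers in the Traf3 and Birc2 differences was not tested.

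**Figure D2:**
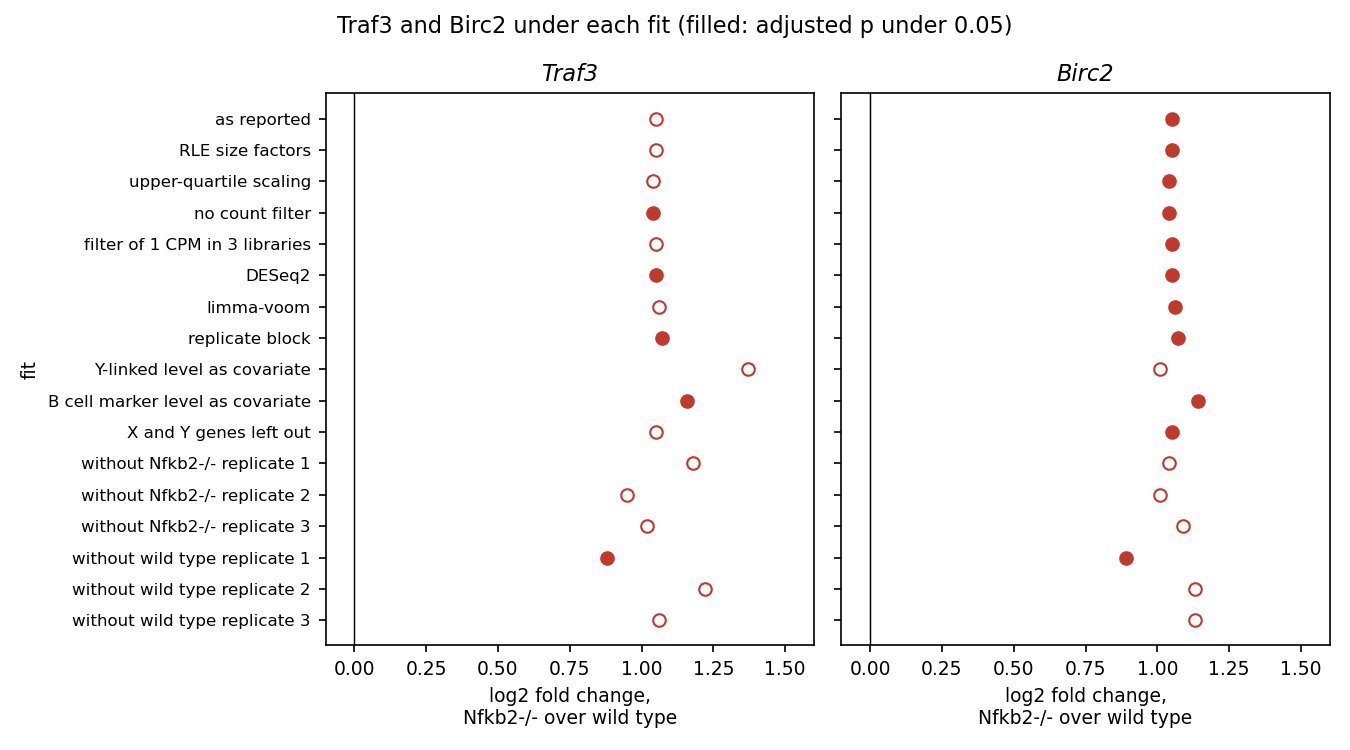
Log2 fold change of Nfkb2-/- over wild type for Traf3 (left) and Birc2 (right) in each fit, 1 point per fit, filled where the adjusted p was under 0.05. All points lie to the right of 0, from 0.88 to 1.37 for Traf3 and from 0.89 to 1.14 for Birc2, and 5 of 16 alternatives called Traf3 while 10 of 16 called Birc2.

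The sequences in front of Traf3, Birc2 and Birc3 are shown because Traf3 and Birc2 had the same fold difference between genotypes and Birc3 did not. They are the 250 bases before the first listed RefSeq start (GRCm38.p6), written 5′ to 3′ on the strand of the gene, with capitals for matches, on either strand, to a simplified kappa-B motif (GGG, any 3 bases, then TTCC). They are chr12:111166120-111166369 (plus), chr9:7837058-7837307 (minus) and chr9:7873171-7873420 (minus).
Traf3: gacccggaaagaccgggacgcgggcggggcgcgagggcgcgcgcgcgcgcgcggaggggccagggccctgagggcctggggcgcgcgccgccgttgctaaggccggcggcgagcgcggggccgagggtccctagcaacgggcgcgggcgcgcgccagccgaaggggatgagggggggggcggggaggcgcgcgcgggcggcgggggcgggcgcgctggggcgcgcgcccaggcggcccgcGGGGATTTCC
Birc2: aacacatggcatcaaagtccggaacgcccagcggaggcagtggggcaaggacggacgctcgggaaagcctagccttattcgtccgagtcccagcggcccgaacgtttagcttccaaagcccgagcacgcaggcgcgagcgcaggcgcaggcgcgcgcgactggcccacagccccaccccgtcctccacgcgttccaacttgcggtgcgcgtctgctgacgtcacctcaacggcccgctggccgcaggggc
Birc3: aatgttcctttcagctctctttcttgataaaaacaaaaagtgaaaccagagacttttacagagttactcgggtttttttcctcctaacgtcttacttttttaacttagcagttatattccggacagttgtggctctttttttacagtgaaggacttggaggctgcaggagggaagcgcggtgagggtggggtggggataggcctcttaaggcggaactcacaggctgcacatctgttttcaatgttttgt
The Traf3 window ended in a match, GGGGATTTCC, whose first base lies 10 bases before the start, and the Birc2 and Birc3 windows held none. Of the 9 genes of the set with a listed window 3 held a match (Traf3, Chuk and Cyld). The share was 4.65% of all 32851 windows, and 6.23% of 9359 tested genes had one in at least 1 window. A match is a run of letters and not a measured binding site.

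Traf2, the partner of TRAF3 that recruits the cIAP ligases, did not differ between the genotypes beyond their spread. It was at 74.4, 61.7 and 66.0 CPM in Nfkb2-/- and at 70.6, 57.5 and 73.4 CPM in wild type. The log2 fold change was 0.0036 with an SE of 0.142 (edgeR adjusted p = 0.995), its sign turned in 6 of 16 alternatives, and 2 standard errors to either side span -0.28 to 0.29. Traf1, a TRAF without the RING domain of the others and a known NF-kB target, was at 978, 920 and 989 CPM in Nfkb2-/- and at 695, 735 and 890 CPM in wild type. The Nfkb2-/- libraries were all higher, as for 10.7% of all genes tested, but wild-type replicate 3 came within 1.03-fold of the lowest of them. The log2 fold change was 0.32 with an SE of 0.153 (edgeR adjusted p = 0.425). Within 1 Mb of Traf1 on chromosome 2, 1 of 18 genes tested was called, Ggta1, a galactosyltransferase gene, with a log2 fold change of 0.98.

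Map3k14, the gene of NIK, was not called, and its genotypes overlapped. Its level was 225, 187 and 196 CPM in Nfkb2-/- and 227, 212 and 229 CPM in wild type. The log2 fold change was -0.14 with an SE of 0.123 (edgeR adjusted p = 0.710), and 2 standard errors to either side span -0.38 to 0.11, which leaves out the 2-fold size of the Traf3 and Birc2 differences. Against Traf3 the balance differed: the ratio of Map3k14 to Traf3 counts was 0.664, 0.397 and 0.451 in the 3 Nfkb2-/- libraries, against 1.5, 0.863 and 1.13 in the 3 wild-type ones. Each Nfkb2-/- library had a lower ratio than each wild-type library, and Traf3 was without overlap on its own as well. The log2 difference was -1.20 (-1.02 ± 0.386 in Nfkb2-/- and 0.18 ± 0.399 in wild type, SD, n = 3 each). The exact two-sided permutation test gave p = 0.1, the smallest possible, and 0.1 adjusted over 3 ratios. Map3k14 shares 135 exonic bases, 2.06% of its exons, with the noncoding gene 1700028N14Rik on the same strand.

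**Figure D3:**
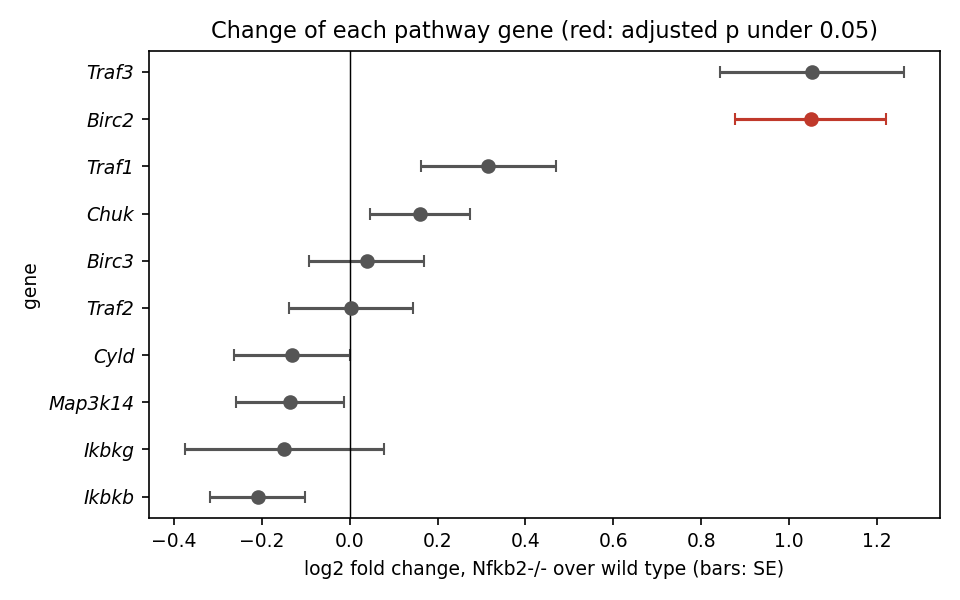
Log2 fold change of Nfkb2-/- over wild type for each of the 10 genes, sorted, with bars of 1 SE and red for the gene with an adjusted p under 0.05. Traf3 and Birc2 stand at 1.05, and the other 8 genes lie between -0.21 and 0.32.

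The 2 catalytic kinase genes had small log2 fold changes of opposite sign, and neither was called. Chuk (IKK-alpha) was at 113, 132 and 127 CPM in Nfkb2-/- and at 113, 115 and 106 CPM in wild type, or 0.16 on the log2 scale (fold change with SE 0.114; edgeR adjusted p = 0.622). Ikbkb (IKK-beta) was at 198.5, 193 and 187 CPM in Nfkb2-/- and at 222, 231 and 217 CPM in wild type, so that every Nfkb2-/- library was below every wild-type library, as for 9.9% of all genes tested. For Ikbkb the log2 fold change was -0.21 with an SE of 0.108 (edgeR adjusted p = 0.466). The ratio of Chuk to Ikbkb counts was 0.572, 0.680 and 0.680 in the 3 Nfkb2-/- libraries, against 0.508, 0.497 and 0.486 in the 3 wild-type ones. It was higher in every Nfkb2-/- library, with a log2 difference of 0.37 (-0.64 ± 0.144 in Nfkb2-/- and -1.01 ± 0.0319 in wild type, SD, n = 3 each; exact two-sided permutation p = 0.1, the smallest possible, and 0.1 adjusted over 3 ratios). Chuk lies 2.20 Mb from Nfkb2 on chromosome 19, and 1 of 21 genes tested within 1 Mb of it was called, the desaturase gene Scd1, which was lower in Nfkb2-/-. The part of this linkage in the Chuk values was not tested.

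**Figure D4:**
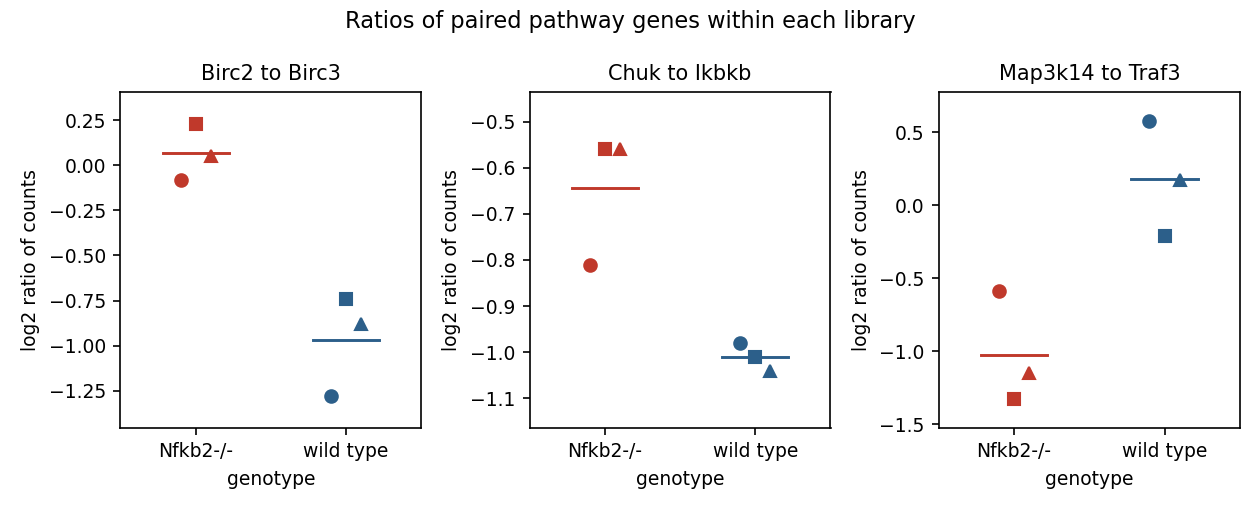
Log2 ratio of counts within each library for Birc2 to Birc3, Chuk to Ikbkb and Map3k14 to Traf3, with Nfkb2-/- in red left of wild type in blue, circle, square and triangle for replicates 1, 2 and 3, and a line at each mean. In each panel the genotypes do not overlap, and the differences of the means are 1.03, 0.37 and -1.20. Birc2, Ikbkb and Traf3 were also without overlap on their own, as were 20.6% of all genes tested. How often ratios of other gene pairs lack overlap was not computed.

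Ikbkg, the gene of the scaffold NEMO, was not called. It was at 46.1, 39.5 and 42.3 CPM in Nfkb2-/- and at 65.3, 37.0 and 39.2 CPM in wild type, where replicate 1 was above all other libraries. The log2 fold change was -0.15 with an SE of 0.226 (edgeR adjusted p = 0.845), and it turned to 0.16 without wild-type replicate 1. Ikbkg is X-linked and shares 418 exonic bases, 5.15% of its exons, with G6pdx on the opposite strand, which unstranded counts cannot separate. Cyld, the deubiquitinase, was at 179, 189 and 195 CPM in Nfkb2-/- and at 230, 209.8 and 177 CPM in wild type, with overlapping genotypes, or -0.13 on the log2 scale (fold change with SE 0.133; edgeR adjusted p = 0.748).

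Levels per length place Traf1 first and Ikbkg last in both genotypes. In CPM per kb of exons (union of all annotated exons), the order in Nfkb2-/- was Traf1 (109), Birc2 (79.4), Birc3 (69.6), Traf3 (56.5), Map3k14 (31.0), Chuk (24.4), Cyld (14.9), Traf2 (13.2), Ikbkb (10.1) and Ikbkg (5.26). In wild type it was Traf1 (87.7), Birc3 (67.8), Birc2 (38.4), Map3k14 (34.0), Traf3 (27.3), Chuk (21.8), Cyld (16.4), Traf2 (13.2), Ikbkb (11.7) and Ikbkg (5.82). Ranges over the 3 libraries overlapped between neighbours for Birc2 and Birc3 and for Cyld and Traf2 in Nfkb2-/-. In wild type they overlapped from Birc2 through Map3k14 and Traf3 to Chuk, and from Cyld through Traf2 to Ikbkb. In Nfkb2-/- the Traf3 level per kb lay above the Map3k14 range, whereas in wild type the ranges of these 2 genes overlapped. Per kb of the longest transcript Ikbkb moved to rank 6 in Nfkb2-/- and rank 5 in wild type, its exon union of 19078 bases being far longer than its longest transcript of 4845 bases. On that scale the Traf3 and Map3k14 ranges overlapped in Nfkb2-/-, and in wild type Traf3 (28.4) lay below Map3k14 (52.5) without overlap. There the mean of Birc3 was above that of Birc2 in both genotypes. The values were 120 against 109 in Nfkb2-/-, with overlapping ranges, and 117 against 52.8 in wild type, without overlap.

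Among 77 other genes of the pathway, 74 were tested, of which 1 rose and 1 fell, with a median log2 fold change of 0.03 and 11 unadjusted p under 0.05. By the same edgeR test, 1.01% of all genes tested rose, 0.405% fell and 13.6% had an unadjusted p under 0.05. The gene that rose was Tnfrsf9, which encodes 4-1BB, a receptor that binds TRAF1 and TRAF2. It was at 831, 882 and 919 CPM in Nfkb2-/- and at 392.1, 419 and 457 CPM in wild type, or 1.05 on the log2 scale (fold change with SE 0.137; edgeR adjusted p = 0.0157). The gene that fell was Nfkb2, the gene mutated in the cells labelled Nfkb2-/-, with a log2 fold change of -0.94 (edgeR adjusted p = 0.0203). Its fall follows from the design and is no finding about the other pathway genes. Of the receptors, 1 of 13 rose and 0 fell, with a median of -0.02. Of the NF-kB subunits and IkB proteins, 0 of 11 rose and 1, Nfkb2 itself, fell, with a median of 0.01. Without any 1 of the Nfkb2-/- libraries, or without wild-type replicate 2, edgeR called 0 of the 74 genes. Without wild-type replicate 3 it called Tnfrsf9 alone. Without wild-type replicate 1 it called 5 higher and 8 lower, where 9.04% of all genes tested were called. Over all genes, the fits without Nfkb2-/- replicates 1, 2 and 3 called 12, 6 and 11 higher and 3, 1 and 1 lower. Those without wild-type replicates 2 and 3 called 54 and 56 higher and 9 and 10 lower. DESeq2 also called Nfkbie, Rel and Tnfrsf11a higher and Tnfrsf13c and Btrc lower, of which Rel and the 2 receptor genes are named after their values were seen. Tnfrsf11a, the gene of RANK, had 24, 19 and 28 counts in Nfkb2-/- and 9, 7 and 7 in wild type. Tnfrsf13c, which encodes the BAFF receptor of B cells, had 9, 22 and 19 counts in Nfkb2-/- and 55, 119 and 75 in wild type (edgeR adjusted p = 0.082). By edgeR, 2 of the 18 B cell markers tested were called lower in Nfkb2-/-, and 17 had a negative log2 fold change (median -1.56). The part of these markers in the Tnfrsf13c difference was not tested.

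In the other 5 lists edgeR called no gene, and DESeq2 and limma-voom called none either, except for Btrc in DESeq2. The TRAF family and its partners had 0 of 9 called and 1 unadjusted p under 0.05, that of Traf3ip3, a TRAF3-binding protein, with 115 ± 16.8 CPM in Nfkb2-/- libraries, against 201 ± 107 CPM in wild-type ones (SD, n = 3 each; -0.80 on the log2 scale, edgeR adjusted p = 0.343), where wild-type replicate 1 alone was at 324 CPM. The inhibitor-of-apoptosis list had 0 of 6 tested called and 0 unadjusted p under 0.05, with Naip2 at a log2 fold change of 0.30. The kinases and their TAB adaptors had 0 of 11 called and 1 unadjusted p under 0.05, that of Ripk2, the kinase of NOD receptors (-0.29). The ubiquitin factors, ligases and deubiquitinases that act on the chains around these kinases, had 0 of 16 called and 0 unadjusted p under 0.05, with Usp18 at -0.65. The ligase and proteasome genes that act on p100 had 0 of 8 called and 1 unadjusted p under 0.05, that of Btrc, the substrate receptor that binds phosphorylated p100. Btrc was at 16.0, 14.1 and 13.8 CPM in Nfkb2-/- and at 40.2, 24.3 and 22.3 CPM in wild type, without overlap, as for 9.9% of all genes tested in this direction. The log2 fold change was -0.99 with an SE of 0.243 (edgeR adjusted p = 0.112). Its paralog Fbxw11, named after its value was seen, averaged 157 CPM in Nfkb2-/- libraries, against 131 CPM in wild-type ones, with a log2 fold change of 0.26 (edgeR adjusted p = 0.407).

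**Figure D5:**
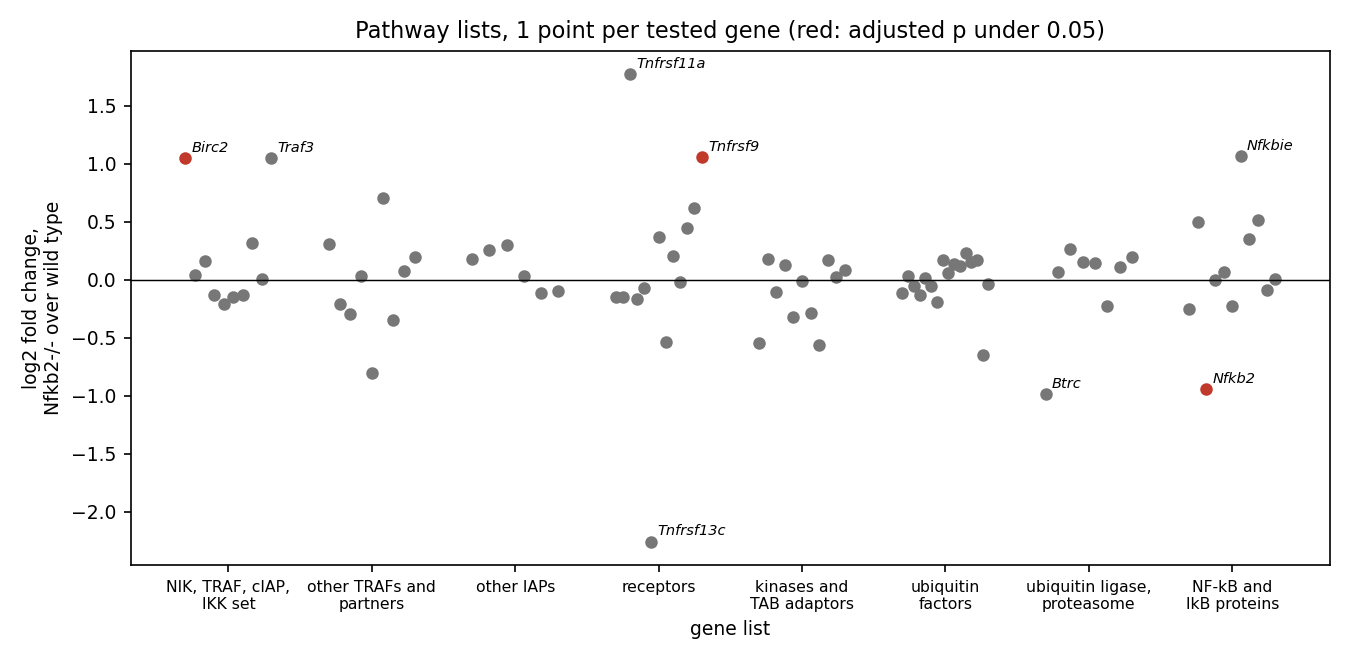
Log2 fold change of Nfkb2-/- over wild type for every tested gene of the set and of 7 further pathway lists, 1 point per gene, red where the adjusted p was under 0.05. Named points lie beyond 0.95 in size, the called ones being Birc2 (1.05), Tnfrsf9 (1.05) and Nfkb2 (-0.94), which is named for its call.

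The genes whose pattern over the 6 libraries was most like that of Birc2 were Pglyrp1 (a peptidoglycan recognition protein), Anxa2 (an annexin) and Nfkbie, by the root-mean-square difference of centred log2 CPM among 7927 named protein-coding genes that averaged 10 CPM or more. The differences were 0.102, 0.105 and 0.125, and Traf3, at 0.164, ranked 15 while Birc3, at 0.548, ranked 2751. Nfkbie, the gene of the inhibitor IkB-epsilon, was at 297, 276 and 293 CPM in Nfkb2-/- and at 93.8, 148 and 172 CPM in wild type, or 1.07 on the log2 scale (fold change with SE 0.214; edgeR adjusted p = 0.0607). Like Birc2 it was lowest in wild-type replicate 1. Likeness over 6 libraries is a description of these libraries.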

How the data were processed

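RNA-seq of 3 Nfkb2-/- and 3 wild-type Treg libraries was used. The authors deposited raw read counts per gene, as whole numbers without normalization; the libraries were unstranded per the labels' protocols. FastQC, HISAT2, HTSeq, DESeq2 and GRCm38 are named in the submitters' processing notes, while how reads were assigned to genes is not stated. Symbols, positions and lengths came from GENCODE M21 (55480 of 55573 identifiers matched), and promoters from RefSeq (GRCm38.p6).

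The test was that of edgeR 4.0.16, run in R 4.3.3 (filterByExpr, TMM, robust quasi-likelihood fit, genotype as the only term, Benjamini-Hochberg adjustment over 13347 genes, threshold 0.05). Genes tested held at least 99.8% of each library's counts. Ratios used an exact permutation test (scipy 1.17.1). The members and gene lists were chosen with earlier results of these data known. Named are the 10 genes, Nfkb2, called genes within 1 Mb of Birc2 or Birc3, from each pathway list the called genes or otherwise the gene with the smallest p, and the 3 genes most like Birc2. Any other is marked, and Eomes, Ggta1, Scd1 and the differences of Il2ra and Ikzf2 were named after their values were seen. The genes most like Map3k14 are not reported here.

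Same-numbered libraries deviated together (correlations across genes 0.381, 0.293 and 0.123, all above 0.1), which met the limit set for pairing, although the third Nfkb2-/- library was closer to the second wild-type one (0.271). This rests on the counts, since the labels do not say what a number marks. The reported fit and ratios are unpaired, and the blocked value stands beside a result whose call it changes. Alternatives were upper-quartile and RLE scaling, dropping the count filter, 1 CPM in 3 libraries, DESeq2 1.42.0, limma-voom (limma 3.58.1), the replicate block, Y-linked or B cell marker levels as covariates, X and Y genes left out, each library left out and, for ratios, a pseudocount of 0.5. On simulated counts for this comparison (13097 genes tested), the test recovered 3 of 50 genes at 1.5-fold, 17 of 50 at 2-fold, 42 of 50 at 4-fold and 50 of 50 at 8-fold, and 13 of 125 calls were false. Figures used matplotlib 3.10.9.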

Additional observations from a re-analysis of the deposited data

How the results depend on the processing

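The number of the 10 genes called higher, 1 (Birc2) in the reported fit, was 2 (Birc2 and Traf3) with no count filter, in DESeq2, with the replicate block and with the B cell marker covariate, and 0 with the Y-linked covariate. Leaving out 1 library at a time gave 0 to 2: 2 without wild-type replicate 1 and 0 without any 1 of the others. None of the 10 was called lower in any of the 16 alternatives. Of the other pathway genes, 1 was called higher as reported, against 2 with no count filter, 4 in DESeq2, 0 with the Y-linked covariate, 12 with the B cell marker covariate and 0 to 5 with 1 library left out. The 1 called lower, the mutated gene Nfkb2 itself, became 3 with no count filter and in DESeq2, 2 with the replicate block, 0 with the Y-linked covariate, 8 with the B cell marker covariate and 0 to 8 with 1 library left out. The 5 and 8 were both without wild-type replicate 1. Over all genes, calls higher and lower numbered 135 and 54 as reported, 628 and 606 without wild-type replicate 1, 6 and 1 with the Y-linked covariate, 1367 and 1126 with the B cell marker covariate, 428 and 252 in DESeq2 and 292 and 174 with no count filter. The cause of these shifts was not tested.

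With the replicate block as paired differences, the log2 ratios differed by 1.03 (Birc2 to Birc3), 0.37 (Chuk to Ikbkb) and -1.20 (Map3k14 to Traf3), as without it, and the sign-flip test cannot go below its p of 0.25 (exact). Apart from Traf3 and, in the pathway lists, Tnfrsf13c (lower), the block changed no call among the 10 genes and the pathway lists, the genes for which it was examined. Leaving out 1 library gave 0.88 to 1.15, 0.33 to 0.45 and -1.42 to -1.0 for these ratios. Traf3 kept a positive log2 fold change, from 0.88 to 1.37, and Birc2 from 0.89 to 1.14, in all 16 alternatives. Traf2, Birc3 and Ikbkg changed sign in 6, 2 and 1 of theirs and were called in none. On simulated counts 17 of 50 genes changed 2-fold were called. Those genes were drawn from low to high levels, so how often such a change is missed at the levels of Traf3 and Birc2 was not tested.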
